A study of Mus musculus with 12 samples.

Results

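Coagulation and fibrinolysis factors are here 35 genes: the clotting factors, the fibrinogen chains, the anticoagulants, the receptors and enzymes of fibrinolysis, and the vitamin K enzymes that prepare the factors for secretion. They were matched by gene symbol, with no measured value used in the matching, and all 35 were found among the 32285 genes of the count tables. Every one had at least 1 UMI (a unique molecular identifier, which counts 1 captured RNA molecule) and each was tested in at least 1 cell class.

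Livers of C57BL6/J mouse pups were taken at postnatal day 11, dissociated and profiled by droplet single-cell RNA sequencing, with 1 library per mouse. Pups were assigned at random to 6 control and 6 anemic mice. The anemic mice had 20 µL of blood per g body weight removed from the facial vein on 5 alternate days, from postnatal day 2 to day 10 (phlebotomy-induced anemia), and the control mice had the needle stick alone. No allele or drug separated the groups, and all 12 libraries carried 1 batch label.

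The liver makes most circulating clotting factors. Hepatocytes secrete fibrinogen, prothrombin, the vitamin K-dependent factors and their inhibitors, while endothelial cells make von Willebrand factor (VWF), factor VIII, thrombomodulin and tissue plasminogen activator, and leukocytes carry the urokinase receptor and factor XIII A. Clotting runs from tissue factor (F3) and the contact system to thrombin, which cuts fibrinogen to fibrin, and plasmin, made from plasminogen, dissolves the clot.

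The libraries held 14389 to 21202 barcodes and 46252146 to 74545930 UMIs, and 206146 of 207537 barcodes were kept. Of 201108 distinct barcodes, 4951 occurred in more than 1 library, and a pair of libraries shared 51 to 121. Cells were clustered without the 35 genes, so that no class was defined by them, and 49 of 86 clusters were named from marker lists into 16 classes. Cells of unnamed clusters were 15.1% of the total. Because livers were dissociated, the share of a gene's RNA that comes from a class depends on how many cells of that class were captured, and fewer cells of a type cannot be told apart from less RNA per cell in such a share. RNA of hepatocyte genes was found outside hepatocyte-like cells, and whether it came from free RNA or from doublets was not tested. In the other classes, 11 genes taken as made in hepatocytes alone lay at a median of 0 to 4.61% of their hepatocyte-like level, beside 0.995% to 3.98% for a list of other hepatocyte genes such as Alb. A level of a hepatocyte gene at that floor is read here as background, not as expression.

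Most members were highest in the class that textbooks give as their source. Levels across classes are counts-per-million (CPM) of all UMIs of a class in a mouse, with no further scaling. Of 33 members with a textbook source, 26 were higher there than in the next-highest class and 5 were lower (exact sign-flip permutation test over 12 mice, adjusted over the 33 genes, smallest possible p = 0.000488). Megakaryocyte-like cells, with as few as 1 cell in a mouse, and unnamed clusters did not enter this test. The other class was picked by its mean in the same mice, and the p-values do not account for that choice. With doublets left out 20 were higher and 4 lower. Fga, the alpha chain of fibrinogen, averaged 2594 ± 583 CPM (± SD over 12 mice) in hepatocyte-like cells, against 87.7 ± 25.2 in the B-like cells that came next. F8, the cofactor of factor IX that lacks a hepatocyte source, averaged 799 ± 137 CPM in sinusoidal endothelial-like cells and 312 ± 89.3 CPM in large-vessel endothelial-like cells. F13a1, the catalytic subunit of factor XIII, averaged 217 ± 94.9 CPM in monocyte-like cells.

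**Figure D1:**
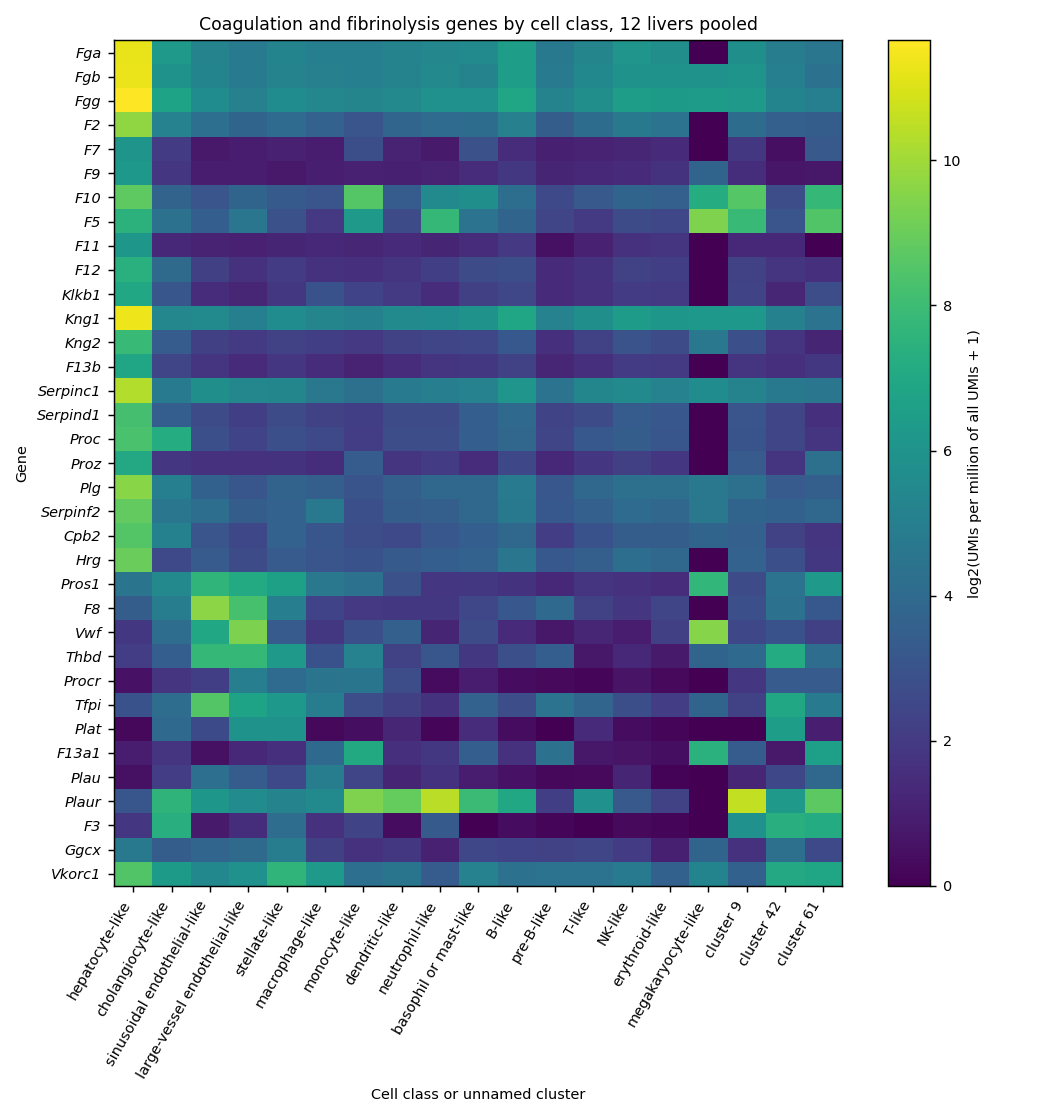
Levels of the 35 genes (vertical axis) in each cell class (horizontal axis), on a log colour scale. Values are CPM of all UMIs pooled over mice, so that mice with more cells of a class weigh more. The hepatocyte factors form a block in the hepatocyte-like column. Among the classes of the source test, F5, Pros1, Tfpi, Plaur and F3 were higher in another class than in the one assigned. Plat, not separated in that test, averaged 62.4 CPM over mice in stellate-like and 58.1 CPM in large-vessel endothelial-like cells. Megakaryocyte-like cells and unnamed clusters are drawn but did not enter the test. In megakaryocyte-like cells Vwf lay at 738 CPM and F5 at 664 CPM.

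F5, the cofactor of factor X, averaged 178 ± 76.7 CPM in hepatocyte-like and 226 ± 58.0 CPM in neutrophil-like cells. Pros1 (protein S, the cofactor of activated protein C) averaged 21.7 ± 6.79 CPM in hepatocyte-like and 198 ± 21.8 CPM in sinusoidal endothelial-like cells. Tfpi (tissue factor pathway inhibitor) averaged 111 ± 24.3 CPM in large-vessel endothelial-like and 377 ± 24.0 CPM in sinusoidal endothelial-like cells. F5 and Pros1 were higher outside the class that textbooks give, and Tfpi, an endothelial gene assigned here to large-vessel cells, was higher in the other endothelial class. For F5 that held over both groups together: in control mice it averaged 246 CPM in hepatocyte-like and 242 CPM in neutrophil-like cells, and in anemic mice 109 and 209 CPM. Plaur, the urokinase receptor, averaged 858 ± 148 CPM in monocyte-like and 1409 ± 138 CPM in neutrophil-like cells. F3 (tissue factor) averaged 17.2 ± 4.85 CPM in stellate-like and 159 ± 45.8 CPM in cholangiocyte-like cells. For Thbd (thrombomodulin, a thrombin receptor) the large-vessel and sinusoidal levels were not separated, at 213 ± 50.5 and 202 ± 69.0 CPM (exact sign-flip permutation p = 0.317). Plat (tissue plasminogen activator) was likewise not separated between large-vessel endothelial-like and stellate-like cells, at 58.1 ± 16.3 and 62.4 ± 17.3 CPM (exact sign-flip permutation p = 0.612).

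Some hepatocyte factors lay above the background floor elsewhere. F10, the factor that cleaves prothrombin, lay in monocyte-like cells at a median of 50.0% of its hepatocyte-like level, and above the hepatocyte gene list in 12 of 12 mice. Proc (protein C, which inactivates factors V and VIII) lay in cholangiocyte-like cells at 54.1% of its hepatocyte-like level, also above the list in 12 of 12. F5 lay in large-vessel endothelial-like cells at 11.6% of its hepatocyte-like level, and Proz (protein Z) in monocyte-like cells at 9.39%. Both were above the list in 12 of 12 mice. Serpinf2 (alpha2-antiplasmin) and Klkb1 (plasma prekallikrein) lay in macrophage-like cells at 5.44% and 5.50% of their hepatocyte-like levels. These genes are examples, not the full set.

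In hepatocyte-like cells F2, F5, F7, the contact factors Klkb1 and F12, the factor XIII carrier F13b and the vitamin K enzyme Ggcx were lower in anemic mice. So were plasminogen (Plg), its inhibitor Serpinf2 and the anticoagulant or related genes Serpind1, Serpinc1, Proc, Proz, Pros1 and Hrg. Cpb2 was higher, and the 3 fibrinogen genes were not called. Levels in the comparisons of anemic with control mice are CPM scaled by edgeR's library factors, except those of the RNA lists, which are unscaled, and a gene was called at an adjusted p under 0.05 over all genes tested in that class. Of 31 members tested there, 17 were called, 2 higher and 15 lower in anemia, beside 47.9% of all 11318 genes tested (23.3% higher and 24.6% lower). The median log2 change was -0.36 over the 31 members and -0.05 over all genes tested. Of the 23 members with a hepatocyte source, 14 were lower, 1 was higher and 8 were not called. Without the library factors the median of all genes moved to -0.28, and the split of all called genes moved from 2640 higher and 2781 lower to 1501 higher and 4229 lower. Among the members that scaling gave 1 higher and 20 lower, coarser clusters gave 7 higher and 14 lower with a member median of -0.14, and DESeq2 gave 5 higher and 15 lower. In cells with at most 10% mitochondrial UMIs the calls over all genes were 2480 of 10290, and those among the members 16 of 30. Of the tested members from other sources, Vwf was called and is given with the genes of fibrinolysis, while Tfpi, Thbd, F3, Plaur and F8 lay under 14 CPM on average in both groups and were not called.

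The fibrinogen chains overlapped between the groups. Fga had 2447, 2914 and 3162 CPM in control mice and 2108, 2839 and 4364 CPM in anemic mice (lowest, median and highest), log2 change 0.10 ± 0.15 (SE), adjusted p = 0.626. Fgb, the beta chain, had 2455, 2962 and 3446 CPM in control mice and 2215, 2929 and 4688 CPM in anemic mice, log2 change 0.19 ± 0.17 (SE), adjusted p = 0.366. Fgg, the gamma chain, had 3037, 3476 and 3913 CPM in control mice and 2997, 4127 and 5747 CPM in anemic mice, log2 change 0.33 ± 0.14 (SE), adjusted p = 0.066. The highest values of all 3 chains were in anemia 2 and 3, the mice with 5037 and 2315 monocyte-like cells against 273 to 523 in the other 10. Whether those cells bear on the fibrinogen values was not tested. Without the library factors Fga and Fgb had log2 changes of -0.13 and -0.03, the opposite direction, and were not called. The call on Fgg depended on the settings: it passed with DESeq2 (0.35, adjusted p = 0.0481), without the filter on low counts, in cells with at least 1500 UMIs (0.34, adjusted p = 0.0369), and with coarser clusters, where Fgb passed also. The 3 genes lie together on chromosome 3 (GRCm38), Fgg at chr3:83007724-83015049, Fga at chr3:83026076-83033627 and Fgb at chr3:83040141-83049863.

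**Figure D2:**
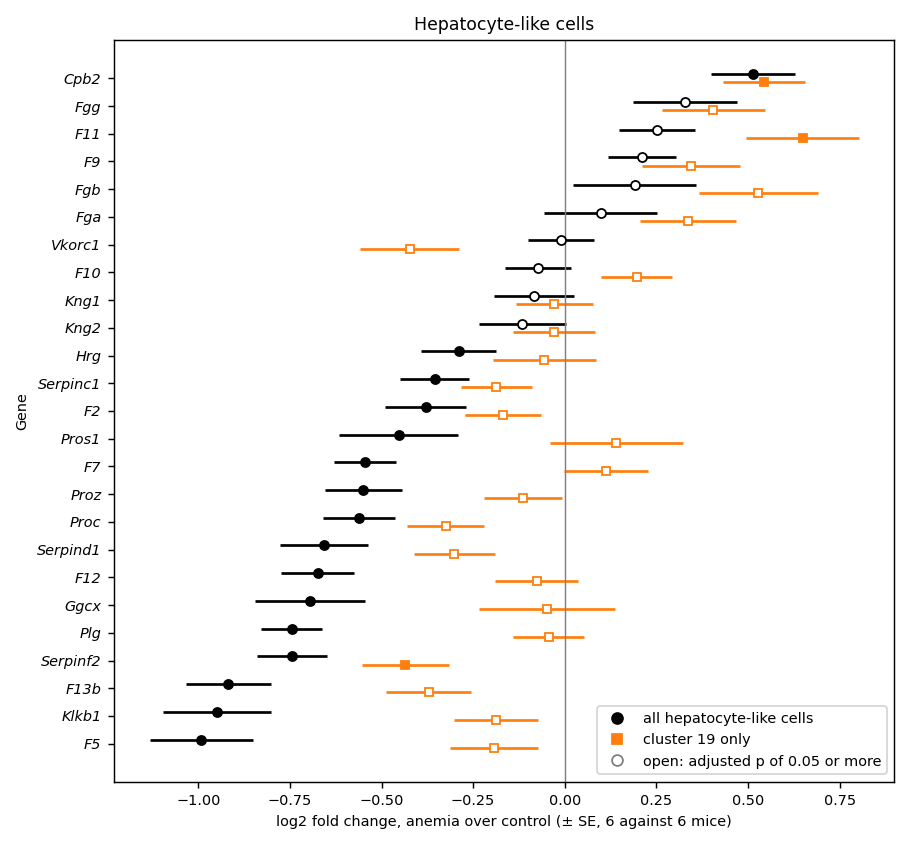
The log2 change, anemia minus control, in hepatocyte-like cells of the 23 members with a hepatocyte source, Ggcx and Vkorc1, ordered by value. Bars are 1 SE (black for all hepatocyte-like cells, orange for cluster 19 alone, filled where called). Vwf, Tfpi, Thbd, F3, Plaur and F8 were tested but are not drawn. In all cells F5, Klkb1 and F13b lie furthest below 0, at -0.99, -0.95 and -0.92, and the fibrinogen chains lie at 0.10 to 0.33.

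Of the factors that lead to thrombin, F5 fell most. F5 (on chromosome 1, chr1:164151838-164220277) had 224, 267 and 333 CPM in control mice and 81.9, 139 and 174 CPM in anemic mice, log2 change -0.99 ± 0.14 (SE), adjusted p = 2.31e-05. F7, the partner of tissue factor, had 81.3, 87.5 and 91.9 CPM in control mice and 48.6, 60.5 and 66.7 CPM in anemic mice, log2 change -0.55 ± 0.09 (SE), adjusted p = 5.69e-05. F2 (prothrombin) had 937, 1105 and 1173 CPM in control mice and 656, 783 and 1032 CPM in anemic mice, log2 change -0.38 ± 0.11 (SE), adjusted p = 0.00827. F5 and F7 did not overlap between the groups, while F2 did. F10 had 488, 510.3 and 544 CPM in control mice and 411, 486 and 579 CPM in anemic mice, log2 change -0.07 ± 0.09 (SE), adjusted p = 0.529. F9, which activates factor X, had 72.6, 74.1 and 92.4 CPM in control mice and 80.4, 90.8 and 102 CPM in anemic mice, log2 change 0.21 ± 0.09 (SE), adjusted p = 0.07. F11, which activates factor IX, had 60.1, 77.8 and 85.7 CPM in control mice and 75.8, 93.7 and 98.6 CPM in anemic mice, log2 change 0.25 ± 0.10 (SE), adjusted p = 0.0542. None of the last 3 was called, and their groups overlapped.

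The contact system was lower in part. Klkb1 had 163, 182 and 191 CPM in control mice and 51.9, 96.2 and 134 CPM in anemic mice, log2 change -0.95 ± 0.15 (SE), adjusted p = 5.27e-05. F12, which starts contact activation, had 191, 235 and 260.0 CPM in control mice and 124, 141 and 172 CPM in anemic mice, log2 change -0.67 ± 0.10 (SE), adjusted p = 3.55e-05. In both, all 6 anemic mice lay below all 6 controls. Kng1, a kininogen gene, had 2795, 3167 and 3546 CPM in control mice and 2374, 3062 and 3608 CPM in anemic mice, log2 change -0.08 ± 0.11 (SE), adjusted p = 0.551. Kng2, the other kininogen gene, had 233, 283 and 335 CPM in control mice and 208, 289.7 and 298 CPM in anemic mice, log2 change -0.12 ± 0.12 (SE), adjusted p = 0.441. Neither was called. F13b, the carrier subunit of factor XIII, had 148, 172 and 189 CPM in control mice and 67.3, 88.0 and 111 CPM in anemic mice, log2 change -0.92 ± 0.12 (SE), adjusted p = 7.21e-06, and every anemic mouse lay below every control.

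Serpind1, Serpinc1, Proc, Proz, Pros1 and Hrg were lower, while Tfpi was not called (0.43, adjusted p = 0.148). Serpind1 (heparin cofactor II, a thrombin inhibitor) had 372, 428 and 437 CPM in control mice and 215, 235 and 347 CPM in anemic mice, log2 change -0.66 ± 0.12 (SE), adjusted p = 2.60e-04. Serpinc1 (antithrombin) had 1560.5, 1607 and 1682 CPM in control mice and 1059, 1176 and 1514 CPM in anemic mice, log2 change -0.36 ± 0.09 (SE), adjusted p = 0.00468. Proc had 371, 428 and 453 CPM in control mice and 239.9, 281 and 336 CPM in anemic mice, log2 change -0.56 ± 0.10 (SE), adjusted p = 1.68e-04. The groups of these 3 did not overlap. Proz (protein Z, a cofactor in the inhibition of factor X) had 160.4, 170.1 and 193 CPM in control mice and 96.5, 112 and 149 CPM in anemic mice, log2 change -0.55 ± 0.11 (SE), adjusted p = 3.95e-04. Pros1 had 22.2, 27.0 and 37.1 CPM in control mice and 13.8, 20.7 and 28.2 CPM in anemic mice, log2 change -0.45 ± 0.16 (SE), adjusted p = 0.0273, and Hrg (histidine-rich glycoprotein, which binds plasminogen and heparin) had 548, 653 and 703 CPM in control mice and 442, 507 and 662 CPM in anemic mice, log2 change -0.29 ± 0.10 (SE), adjusted p = 0.0256. In Proz the anemic mice lay below every control, whereas in Pros1 and Hrg the groups overlapped. With coarser clusters the values of F2, Serpinc1 and Hrg were -0.14, -0.12 and -0.03 and were not called. The call on Hrg was lost when any of 6 mice was left out and that on Pros1 when any of 5 was.

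Genes of fibrinolysis moved in both directions. Plg (plasminogen) had 982, 1122 and 1148 CPM in control mice and 554, 674 and 735 CPM in anemic mice, log2 change -0.75 ± 0.08 (SE), adjusted p = 2.16e-06, with no overlap. Serpinf2, the plasmin inhibitor, had 581, 671 and 725 CPM in control mice and 339, 381 and 475 CPM in anemic mice, log2 change -0.75 ± 0.10 (SE), adjusted p = 8.47e-06, also without overlap. Cpb2, which makes clots more resistant to plasmin, was the member of hepatocyte source that rose, with 347, 364 and 394 CPM in control mice and 378, 513 and 693 CPM in anemic mice, log2 change 0.51 ± 0.11 (SE), adjusted p = 0.00125, and only 1 of the 6 in anemia lay within the control range. Of the vitamin K enzymes, Ggcx (the carboxylase) had 28.6, 32.7 and 45.1 CPM in control mice and 14.6, 20.4 and 27.2 CPM in anemic mice, log2 change -0.69 ± 0.15 (SE), adjusted p = 0.00102, and did not overlap. Vkorc1, the reductase that recycles vitamin K, had 363, 404 and 453 CPM in control mice and 324, 409 and 459 CPM in anemic mice, log2 change -0.01 ± 0.09 (SE), adjusted p = 0.935. Vwf, at no more than 10 CPM in these cells, had 0.614, 1.77 and 3.06 CPM in control mice and 0.811, 1.98 and 9.95 CPM in anemic mice, log2 change 1.42 ± 0.54 (SE), adjusted p = 0.037, and its call was lost when any of 6 mice was left out.

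**Figure D3:**
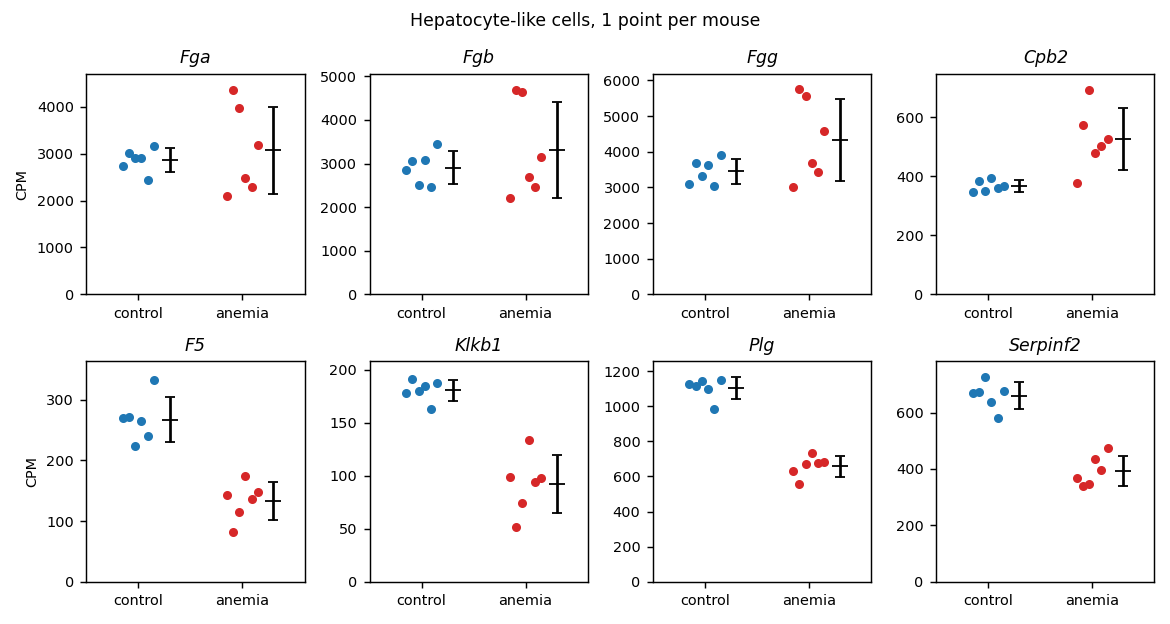
Levels in hepatocyte-like cells (vertical axes, CPM) of Fga, Fgb, Fgg, Cpb2, F5, Klkb1, Plg and Serpinf2, with 1 point per mouse and the mean ± SD of 6 control and 6 anemic mice beside them. F5, Klkb1, Plg and Serpinf2 are lower in all 6 anemic mice than in every control, while the fibrinogen chains overlap and reach their highest values in anemia 2 and 3.

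The promoters of F5, Klkb1 and F13b, the genes that fell most, and of Fga and Fgb, which were not called, are shown from 250 bases before the start to 50 after it (RefSeq, GRCm38.p6). Matches to 4 sets of letters are in capitals. The sets were GTTAAT (HNF1), CAAAGTCC (HNF4), CTGGGAA (interleukin 6 response) and ACGTG (hypoxia response), on both strands.
F5, chr1:164151585-164151884, plus strand: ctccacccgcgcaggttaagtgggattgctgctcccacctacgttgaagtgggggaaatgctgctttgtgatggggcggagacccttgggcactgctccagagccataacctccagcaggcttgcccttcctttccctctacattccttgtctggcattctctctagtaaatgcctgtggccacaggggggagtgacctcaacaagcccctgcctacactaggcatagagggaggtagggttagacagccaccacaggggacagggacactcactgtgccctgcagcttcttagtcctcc
Klkb1, chr8:45294786-45295085, minus strand: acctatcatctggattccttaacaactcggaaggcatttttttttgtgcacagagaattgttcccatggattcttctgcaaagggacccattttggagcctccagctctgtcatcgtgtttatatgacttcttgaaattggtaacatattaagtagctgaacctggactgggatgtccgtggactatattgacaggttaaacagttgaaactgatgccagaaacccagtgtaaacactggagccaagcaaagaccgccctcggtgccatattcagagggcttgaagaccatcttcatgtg
F13b, chr1:139501457-139501756, plus strand: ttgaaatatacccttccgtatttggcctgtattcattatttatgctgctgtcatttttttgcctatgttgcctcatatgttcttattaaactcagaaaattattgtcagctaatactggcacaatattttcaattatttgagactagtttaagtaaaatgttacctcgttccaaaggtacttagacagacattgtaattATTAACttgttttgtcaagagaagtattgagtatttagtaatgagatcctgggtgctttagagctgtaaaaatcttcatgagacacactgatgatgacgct
Fga, chr3:83025903-83026202, plus strand: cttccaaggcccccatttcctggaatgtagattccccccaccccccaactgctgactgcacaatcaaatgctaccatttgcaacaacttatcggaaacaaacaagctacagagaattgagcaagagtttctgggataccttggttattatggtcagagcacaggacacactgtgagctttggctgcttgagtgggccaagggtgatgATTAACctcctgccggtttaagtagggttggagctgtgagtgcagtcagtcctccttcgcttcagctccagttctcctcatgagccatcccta
Fgb, chr3:83049814-83050113, minus strand: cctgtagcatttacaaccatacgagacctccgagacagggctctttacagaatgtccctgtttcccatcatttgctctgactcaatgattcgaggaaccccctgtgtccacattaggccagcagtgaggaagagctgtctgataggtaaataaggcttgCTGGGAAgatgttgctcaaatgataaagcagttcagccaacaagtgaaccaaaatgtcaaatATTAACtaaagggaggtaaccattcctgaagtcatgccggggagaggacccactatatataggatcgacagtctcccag
Fga and F13b hold ATTAAC, the GTTAAT match on the opposite strand, Fgb holds it and CTGGGAA, and F5 and Klkb1 hold no match. Promoters were found for 28 of the 35 members. GTTAAT occurred in 7.10% of all 32851 promoters, in 3 of 12 hepatocyte-source members that fell and in 2 of 7 not called. CTGGGAA occurred in 11.1% of all promoters, in 0 of the 12 and in 4 of the 7 (Fgb, Fgg, F9 and Kng2). CAAAGTCC, in 1.42% of promoters, occurred in none of these members, and ACGTG, in 19.6%, occurred in 2 of the 12 and 3 of the 7. A match is a description of the letters alone.

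The hepatocyte-like class changed in makeup. Cluster 19 held 28.5% of control and 12.0% of anemic hepatocyte-like cells, cluster 20 went from 12.1% to 22.1% and cluster 25 from 9.80% to 19.7%. Levels of F5 differed between these clusters, at 371 CPM over pooled cells in cluster 19, 73.8 in cluster 10, 20.7 in cluster 20 and 16.8 in cluster 25. Within cluster 19 alone, 3 of 30 members were called, beside 4.84% of all genes. F5 had a log2 change of -0.19, adjusted p = 0.476, Klkb1 -0.19, adjusted p = 0.463 and Plg -0.04, adjusted p = 0.897, none of them called. The calls there were Serpinf2 (-0.44, adjusted p = 0.0328), Cpb2 (0.54, adjusted p = 0.00371) and F11 (0.65, adjusted p = 0.0123). The 14 members lower over the whole class had a median log2 change of -0.61 there and -0.18 within cluster 19, where 12 of the 14 lay below 0. The 14 were picked as lower in the class that holds cluster 19, so their direction in it is not a separate result. How many of all genes lower in the class also lay below 0 in cluster 19 was not counted. Within cluster 10, 7 of 24 members were called, beside 7.47% of all genes, including Fgb (0.58, adjusted p = 0.0394), Cpb2 (0.65, adjusted p = 0.00814), F13b (-0.70, adjusted p = 0.00974) and Serpinf2 (-0.73, adjusted p = 4.13e-04). Cluster 20 alone gave 5 calls among 20 members, 0 higher and 5 lower, beside 210 of all 3707 genes. The median log2 change of the members tested was -0.51 in cluster 20, -0.26 in cluster 10 and -0.04 in cluster 19. Other RNA also moved in the class: the hepatocyte gene list ran from 139214 to 153824 CPM in control and 98806 to 140716 CPM in anemic mice, and the erythroid list from 1794 to 8582 CPM in control and 8849 to 29136 CPM in anemic mice. The part of these shifts in the member values was not tested beyond the values within clusters.

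In sinusoidal endothelial-like cells Vwf had the largest rise among the members called, and F5, F8, Plaur, Pros1 and Tfpi rose with it. Of 34 members tested there, 14 were called, 6 higher and 8 lower, beside 18.6% of all 16215 genes (7.99% higher and 10.7% lower), and the median log2 change was -0.37 over the members and 0.00 over all genes. Without the library factors that median was -0.10 and the calls over all genes went from 1295 higher and 1727 lower to 835 and 2831. The member median took in 23 genes with a hepatocyte source among the 34, and 21 of these 23 lay below 0. Vwf (the carrier of factor VIII and tether of platelets, chr6:125546774-125686679) had 36.0, 38.3 and 45.7 CPM in control mice and 155, 241 and 349 CPM in anemic mice, log2 change 2.67 ± 0.19 (SE), adjusted p = 6.08e-07. All 6 anemic mice lay above all 6 controls. The change held within cluster 4 (2.37), cluster 7 (3.03) and cluster 27 (2.58), and in cells without platelet UMIs (2.71). These are log2 changes, and each was called. Cluster 4 held 34.3% of control and 57.4% of anemic cells of the class, and cluster 7 went from 45.8% to 20.0%.

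F8 had 562, 781 and 991 CPM in control mice and 837, 1052 and 1169 CPM in anemic mice, log2 change 0.42 ± 0.12 (SE), adjusted p = 0.027. Its groups overlapped, and the call was lost without control 4, control 6 or anemia 3 (highest adjusted p 0.0609) and without the library factors (0.31, adjusted p = 0.0685). F5 had 4.56, 6.21 and 7.64 CPM in control mice and 12.5, 17.0 and 28.3 CPM in anemic mice, log2 change 1.59 ± 0.19 (SE), adjusted p = 7.87e-05, without overlap, and in cluster 7 alone the value was 0.18, adjusted p = 0.741, against 1.77, adjusted p = 1.67e-04 in cluster 4. Pros1 had 183, 201 and 205 CPM in control mice and 215, 244 and 281 CPM in anemic mice, log2 change 0.31 ± 0.07 (SE), adjusted p = 0.0068, without overlap. Plaur had 64.8, 69.2 and 79.2 CPM in control mice and 75.0, 96.0 and 101 CPM in anemic mice, log2 change 0.40 ± 0.08 (SE), adjusted p = 0.00355, with 5 of 6 anemic mice above all controls. Tfpi had 371, 395 and 418 CPM in control mice and 426, 455 and 489 CPM in anemic mice, log2 change 0.22 ± 0.06 (SE), adjusted p = 0.0195, without overlap, and its call was lost without control 6 (adjusted p = 0.0518) or without the library factors. Thbd had 175, 239.9 and 263 CPM in control mice and 76.5, 222 and 336 CPM in anemic mice and was not called (-0.11, adjusted p = 0.817). Plat, Plau and Procr (the receptor of protein C) were not called either. Without control 6 the count of members called was 8, and without control 5 it was 9.

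The 8 members lower in sinusoidal endothelial-like cells were hepatocyte genes. Serpinc1 had 62.8, 67.3 and 82.8 CPM in control mice and 29.3, 47.5 and 57.0 CPM in anemic mice, log2 change -0.56 ± 0.13 (SE), adjusted p = 0.00872. Serpinf2 had 19.8, 26.4 and 37.4 CPM in control mice and 6.23, 9.20 and 15.5 CPM in anemic mice, log2 change -1.42 ± 0.20 (SE), adjusted p = 3.26e-04. Both were lower in all 6 anemic mice. Serpinc1 lay at a median of 2.45 times the hepatocyte gene list there, both relative to hepatocyte-like cells. F13b had 2.26, 3.30 and 4.59 CPM in control mice and 0.410, 1.5 and 2.53 CPM in anemic mice (log2 change -1.12, adjusted p = 0.0156). Plg had 10.8, 15.2 and 23.1 CPM in control mice and 2.46, 8.74 and 12.7 CPM in anemic mice (log2 change -0.95, adjusted p = 0.0387). Serpind1 had 5.85, 7.36 and 9.67 CPM in control mice and 0.410, 3.55 and 6.34 CPM in anemic mice (log2 change -1.05, adjusted p = 0.025). In these 3 genes the groups overlapped. Proc had 6.13, 8.51 and 11.1 CPM in control mice and 1.44, 5.14 and 6.26 CPM in anemic mice (log2 change -0.91, adjusted p = 0.0343). Kng1 had 49.0, 61.8 and 84.9 CPM in control mice and 13.7, 38.3 and 50.7 CPM in anemic mice (log2 change -0.91, adjusted p = 0.0278). Hrg had 9.91, 13.1 and 18.2 CPM in control mice and 1.23, 5.74 and 11.4 CPM in anemic mice (log2 change -1.10, adjusted p = 0.0435). The groups overlapped in these as well. The calls on Hrg, Plg, Proc, Kng1 and Serpind1 were lost in 1 to 8 of 12 leave-one-out fits. The hepatocyte gene list in this class ran from 2160.1 to 3893 CPM in control and 441 to 2336 CPM in anemic mice, and in the cells of each mouse with the lower share of it 16 of 30 members were called, beside 2718 of all 15247 genes. Platelet RNA ran from 35.7 to 63.2 CPM in control and 45.8 to 177 CPM in anemic mice, beside which Vwf gave 2.71 in cells without it. The erythroid list ran from 1043 to 2922 CPM in control and 3188 to 6923 CPM in anemic mice.

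**Figure D4:**
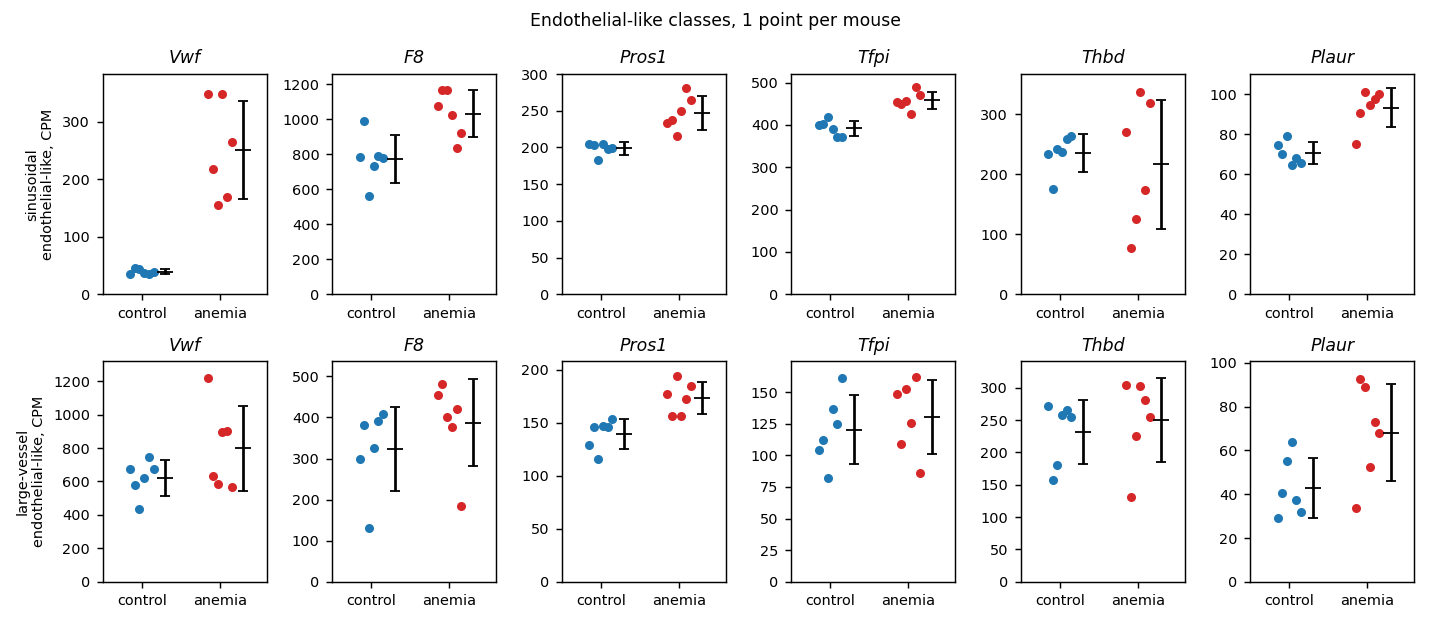
Levels (vertical axes, CPM) of Vwf, F8, Pros1, Tfpi, Thbd and Plaur in sinusoidal (upper) and large-vessel (lower) endothelial-like cells, with 1 point per mouse and the mean ± SD of 6 control and 6 anemic mice. Sinusoidal Vwf separates the groups entirely, while in large-vessel cells the Vwf values overlap.

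Large-vessel endothelial-like cells had a higher Vwf level than sinusoidal endothelial-like cells in 12 of 12 mice, and 2 calls. Of 24 members tested, 2 were lower and 0 higher, beside 0.657% of all genes (0.444% higher and 0.214% lower), with a median log2 change of -0.04 over the members and 0.00 over all genes. A hepatocyte source was assigned to 14 of the 24, and 11 of these 14 lay below 0. Without the library factors the calls over all genes went from 54 higher and 26 lower to 44 and 49. Vwf had 435, 647 and 748 CPM in control mice and 564, 764 and 1217 CPM in anemic mice, log2 change 0.37 ± 0.18 (SE), adjusted p = 0.487, and the groups overlapped. The change in Vwf differed between the classes: the sinusoidal minus large-vessel difference was 2.19 in log2(unscaled CPM + 1), at an exact permutation p of 0.00216 (the smallest that 924 arrangements allow) and an adjusted p of 0.0227 over 21 tests. Of the 20 other such tests, 1 passed, for Thbd between macrophage-like and monocyte-like cells. Of the members assigned to these cells, Thbd had 157, 257 and 272 CPM in control mice and 132, 268 and 305 CPM in anemic mice (log2 change 0.12, adjusted p = 0.881). Tfpi had 82.4, 119 and 161 CPM in control mice and 86.2, 137 and 162 CPM in anemic mice (log2 change 0.11, adjusted p = 0.894). Plat had 45.2, 69.0 and 87.1 CPM in control mice and 45.9, 58.1 and 101 CPM in anemic mice (log2 change 0.05, adjusted p = 0.977) and Procr had 24.0, 35.7 and 44.1 CPM in control mice and 25.7, 31.8 and 44.3 CPM in anemic mice (log2 change -0.04, adjusted p = 0.977). None of the 4 was called, and their groups overlapped. Pros1 did not overlap between the groups, with 116, 146 and 154 CPM in control mice and 156, 175 and 194 CPM in anemic mice (log2 change 0.31, adjusted p = 0.185), and was not called. The called genes were hepatocyte genes. Serpinc1 had 46.1, 60.0 and 69.5 CPM in control mice and 27.7, 36.2 and 42.3 CPM in anemic mice (log2 change -0.73, adjusted p = 0.0216) and Serpinf2 had 10.6, 19.7 and 28.7 CPM in control mice and 0, 3.67 and 11.5 CPM in anemic mice (log2 change -1.93, adjusted p = 0.0331). The hepatocyte gene list ran from 1778 to 2904 CPM in control and 335 to 1565 CPM in anemic mice, and among cells that held less of it edgeR called 0 of 20 members, 6 of which had an unadjusted p under 0.05, beside 54 of all 11259 genes. Leaving out 1 mouse lost the Serpinc1 call without control 4, control 6, anemia 4 or anemia 5 and the Serpinf2 call in 8 of 12 fits. The count of calls was then 0 without control 4, control 6, anemia 4 or anemia 5 and 1 without control 1, control 3, control 5 or anemia 2.

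Stellate-like cells carried Plat and little F3. The class took in 3 clusters, and only cluster 37 was led by the stellate genes Ecm1, Colec11 and Reln. Cluster 33 was led by Mfap4, Eln and Acta2, and cluster 39 by Mfap5, Clec3b and Dpt, genes known from fibroblasts and smooth muscle, and no list of fibroblast markers was used. Cluster 33 went from 34.6% of control to 43.8% of anemic cells of the class. Of 30 members tested there, 8 were called, 2 higher and 6 lower, beside 5.03% of all 13610 genes (2.73% higher and 2.29% lower), and the median log2 change was -0.53 over the members and 0.01 over all genes. Members with a hepatocyte source were 19 of the 30, and 17 of these 19 lay below 0. Without the library factors the calls over all genes went from 372 higher and 312 lower to 238 and 430. The count of members called was 3 without control 1 or control 5, 4 without anemia 4 and 13 without control 2. Plat had 37.2, 52.5 and 78.6 CPM in control mice and 69.6, 83.8 and 112 CPM in anemic mice (log2 change 0.61, adjusted p = 0.0351). F3 had 11.1, 13.5 and 23.8 CPM in control mice and 18.9, 21.6 and 27.2 CPM in anemic mice (log2 change 0.52, adjusted p = 0.168) and was not called, although it passed in cells with doublets left out (0.95, adjusted p = 0.0453). Vwf had 0.820, 3.89 and 9.49 CPM in control mice and 10.7, 15.1 and 24.9 CPM in anemic mice (log2 change 1.82, adjusted p = 0.00481), without overlap, at a level under that of either endothelial class. In stellate-like cells the platelet list ran from 38.5 to 132 CPM in control and 43.3 to 183 CPM in anemic mice, the neutrophil list from 34.0 to 552 CPM in control and 300.4 to 1163 CPM in anemic mice and the erythroid list from 662 to 3581 CPM in control and 6690.1 to 18014 CPM in anemic mice. Cluster 37 held 44.5% of control and 20.4% of anemic stellate-like cells, and cluster 39 went from 20.9% to 35.7%. The part of these shifts in the Plat, F3 and Vwf values was not tested. With coarser clusters neither Vwf (0.67, adjusted p = 0.592) nor Plat (0.53, adjusted p = 0.0945) was called. Without doublets Vwf had a log2 change of 1.14 (adjusted p = 0.214) and was not called, and the Plat call was lost in 7 of 12 leave-one-out fits.

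The 6 members lower in stellate-like cells were again hepatocyte genes. The calls on Fga, Serpinf2, Cpb2 and Proc were lost in 3 to 6 of 12 leave-one-out fits, all 4 of them without control 1, control 5 or anemia 4. Serpinc1 had 37.0, 59.5 and 71.4 CPM in control mice and 12.7, 31.2 and 40.1 CPM in anemic mice (log2 change -0.84, adjusted p = 0.0154). Fga had 36.7, 54.4 and 66.4 CPM in control mice and 14.5, 27.5 and 43.2 CPM in anemic mice (log2 change -0.84, adjusted p = 0.0295). Kng1 had 37.0, 74.3 and 94.2 CPM in control mice and 10.9, 37.5 and 44.3 CPM in anemic mice (log2 change -0.97, adjusted p = 0.0133). The groups of these 3 overlapped. Serpinf2 had 7.08, 19.1 and 25.3 CPM in control mice and 1.81, 6.75 and 11.6 CPM in anemic mice (log2 change -1.19, adjusted p = 0.0254). Proc had 6.19, 9.79 and 12.1 CPM in control mice and 1.26, 3.62 and 6.5 CPM in anemic mice (log2 change -1.20, adjusted p = 0.024). Cpb2 had 7.86, 17.9 and 25.3 CPM in control mice and 3.63, 7.81 and 11.1 CPM in anemic mice (log2 change -1.05, adjusted p = 0.0296). These overlapped also. The hepatocyte gene list in stellate-like cells ran from 1738 to 4019.8 CPM in control and 386 to 2022 CPM in anemic mice, and in the cells of each mouse with the lower share of it 2 of 24 members were called, beside 227 of all 12587 genes.

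Macrophage-like cells had lower Plau. Of 34 members tested, 7 were called, 1 higher and 6 lower, beside 2.57% of all 14239 genes (1.33% higher and 1.24% lower), with a median log2 change of -0.57 over the members and 0.03 over all genes. Hepatocyte-source genes made up 23 of the 34, and 22 of these 23 lay below 0. Plau (urokinase) had 33.0, 36.0 and 60.8 CPM in control mice and 16.9, 22.7 and 30.9 CPM in anemic mice (log2 change -0.84, adjusted p = 0.0314), and every anemic mouse lay below every control, although the call was lost in 8 of 12 leave-one-out fits. Within the class cluster 5 went from 61.4% of control to 38.0% of anemic cells, cluster 30 from 3.75% to 22.1% and cluster 23 from 10.3% to 21.4%, and the part of these shifts in the Plau value was not tested. Vwf, at under 10 CPM, had 1.27, 2.08 and 3.21 CPM in control mice and 3.25, 3.57 and 6.40 CPM in anemic mice (log2 change 1.09, adjusted p = 0.0487), and its call was lost in 9 of 12. Serpinf2, which lay above the background floor here, had 32.0, 36.0 and 47.0 CPM in control mice and 8.85, 20.7 and 28.0 CPM in anemic mice (log2 change -0.98, adjusted p = 0.0499). Klkb1, also above the floor, had 7.94, 9.66 and 13.1 CPM in control mice and 2.78, 5.79 and 7.05 CPM in anemic mice (log2 change -0.92, adjusted p = 0.0303). In both the groups did not overlap. Serpinc1 had 29.0, 35.9 and 45.6 CPM in control mice and 10.8, 21.3 and 28.2 CPM in anemic mice (log2 change -0.90, adjusted p = 0.0374). Kng1 had 48.6, 59.7 and 71.5 CPM in control mice and 14.8, 32.5 and 40.4 CPM in anemic mice (log2 change -1.06, adjusted p = 0.0295) and Proc had 6.98, 8.11 and 10.9 CPM in control mice and 0.910, 2.99 and 6.09 CPM in anemic mice (log2 change -1.55, adjusted p = 0.0347). These 3 did not overlap either, and the hepatocyte gene list ran from 2074 to 3426 CPM in control and 421 to 2259.7 CPM in anemic mice. The count of calls was 0 without control 1, control 3 or control 6, 1 without control 4 or anemia 3, 2 without control 5, 3 without control 2 or anemia 5 and 13 without anemia 6. Without 1 mouse the calls over all genes, 366 with every mouse in, were 112 to 237 for each control mouse left out and 180 without anemia 3. In cells without platelet UMIs edgeR called 0 of 31 members, 18 of which had an unadjusted p under 0.05, beside 77 of all 11798 genes. The member median there was -0.83, and Plau was at -1.09 (adjusted p = 0.0502). Pf4 made up 373 of the 377 CPM of the platelet list in control macrophage-like cells.

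**Figure D5:**
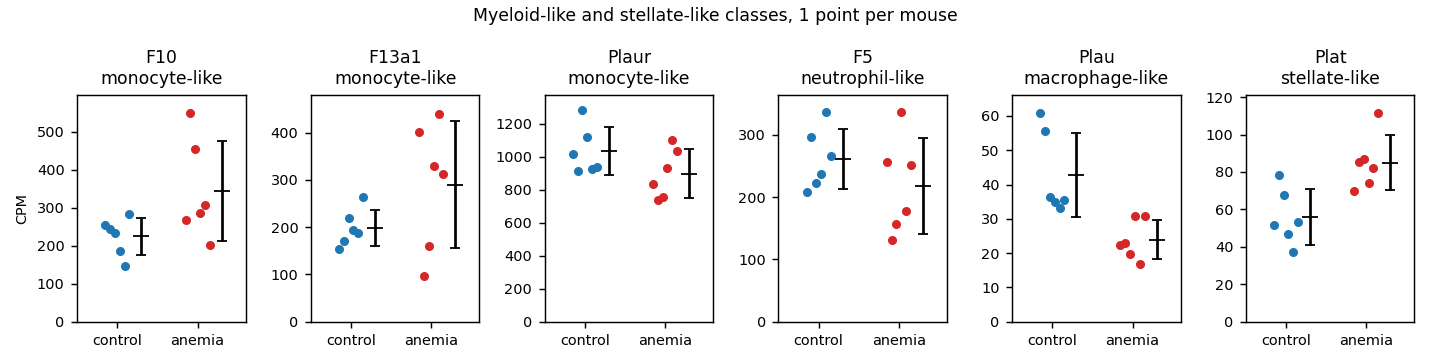
Levels (vertical axes, CPM) of F10, F13a1 and Plaur in monocyte-like, F5 in neutrophil-like, Plau in macrophage-like and Plat in stellate-like cells, with 1 point per mouse and the mean ± SD of 6 control and 6 anemic mice. Plau separates the groups, while the other 5 genes overlap.

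Monocyte-like cells carried F5, F10, F13a1 and Plaur, and none of these was called. Of 31 members tested, 1 was called and lower, beside 0.491% of all 11598 genes (0.267% higher and 0.224% lower), with a median log2 change of -0.66 over the members and 0.02 over all genes. Among the 31, 20 had a hepatocyte source, and 18 of these 20 lay below 0. DESeq2 moved the calls over all genes from 31 higher and 26 lower to 65 and 83. Plaur had 915, 978 and 1283 CPM in control mice and 736, 884 and 1102 CPM in anemic mice (log2 change -0.20, adjusted p = 0.486). F13a1 had 155, 191 and 264 CPM in control mice and 96.3, 320.5 and 440.0 CPM in anemic mice (log2 change 0.53, adjusted p = 0.428). F10 had 147, 239 and 283 CPM in control mice and 203, 295 and 548 CPM in anemic mice (log2 change 0.63, adjusted p = 0.214) and F5 had 118, 152 and 171 CPM in control mice and 46.3, 172 and 228 CPM in anemic mice (log2 change -0.02, adjusted p = 0.992). The groups of these 4 overlapped. The call was the hepatocyte gene Plg, which lay at 2.31% of its hepatocyte-like level, beside 2.32% for the hepatocyte gene list. It had 19.4, 28.5 and 35.2 CPM in control mice and 4.29, 11.5 and 17.5 CPM in anemic mice (log2 change -1.66, adjusted p = 0.0397), without overlap. It was lost without control 1, 3, 4, 5 or 6, or anemia 3 or 5, and the count of calls was 2 without anemia 4, 3 without anemia 1 and 7 without anemia 6. The hepatocyte gene list in monocyte-like cells ran from 3371 to 5660.2 CPM in control and 552 to 3826 CPM in anemic mice. Cluster 14 held 79.8% of control and 27.4% of anemic monocyte-like cells, and cluster 11 went from 7.93% to 56.9%, so that mostly different clusters carry the values of the groups. For Thbd the changes differed between macrophage-like and monocyte-like cells: its change, in log2(unscaled CPM + 1), was in the former 0.22 and in the latter -0.82, and the difference was 1.04 (exact permutation p = 0.00216, adjusted p = 0.0227).

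Neutrophil-like cells carried Plaur and F5, and neither was called. Of 20 members tested, 1 was called and lower, beside 0.372% of all 8862 genes (0.102% higher and 0.271% lower), with a median log2 change of -0.89 over the members and 0.03 over all genes. That member median rests mostly on hepatocyte genes: 16 of the 20 had a hepatocyte source, and 15 of these 16 lay below 0. Without the library factors the calls over all genes went from 9 higher and 24 lower to 46 and 34. Plaur had 1293, 1420.0 and 1690.2 CPM in control mice and 1314, 1543 and 1722 CPM in anemic mice (log2 change 0.09, adjusted p = 0.747). F5 had 208, 252 and 337 CPM in control mice and 130.5, 215 and 336 CPM in anemic mice (log2 change -0.27, adjusted p = 0.618). Both overlapped between the groups. The called gene was the hepatocyte gene Kng1, with 58.8, 86.5 and 117 CPM in control mice and 15.4, 31.6 and 71.1 CPM in anemic mice (log2 change -1.35, adjusted p = 0.0387), while the hepatocyte gene list ran from 3295 to 5018 CPM in control and 574 to 3180.4 CPM in anemic mice. Its call was lost in 7 of 12 leave-one-out fits, without control 1, 2, 3, 5 or 6, or anemia 3 or 5, and the count of calls was 5 without anemia 6.

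Megakaryocyte-like cells numbered 46 and were too few for a test. Control mice gave 15 of them and anemic mice 31, at 1 to 7 a mouse. Their 81269 UMIs held 60 UMIs (738 CPM, exact Poisson interval 563 to 950.3) of Vwf. F5 gave 54 UMIs (664 CPM, exact Poisson interval 499 to 867). Pros1 gave 17 UMIs (209 CPM, exact Poisson interval 122 to 335), F13a1 gave 14 UMIs (172 CPM, exact Poisson interval 94.2 to 289) and F10 gave 12 UMIs (148 CPM, exact Poisson interval 76.3 to 258). These intervals cover counting error only.

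The share of each gene's UMIs by class followed both the levels and the numbers of cells captured. Hepatocyte-like cells gave 39.0% ± 6.23 (SD, n = 6) of F5 UMIs in control and 18.5% ± 9.95 in anemic mice, and monocyte-like cells 6.24% ± 2.26 and 20.7% ± 15.9. For F10 the hepatocyte-like share was 58.2% ± 5.64 and 42.5% ± 27.6, and the monocyte-like share 7.57% ± 4.36 and 28.6% ± 27.0. Vwf came from large-vessel endothelial-like cells at 47.1% ± 4.10 and 27.8% ± 4.86, and from sinusoidal endothelial-like cells at 30.8% ± 2.92 and 50.3% ± 4.83. Anemia 2 and anemia 3 held 5037 and 2315 monocyte-like cells, against 273 to 523 in the other mice. Over the pooled F10 UMIs of anemic mice the monocyte-like share was 46.8% and the hepatocyte-like share 24.9%. These shares are descriptions and were not tested.

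The 43 related genes of haemostasis are receptors, platelet glycoproteins, plasmin regulators and clearance receptors. They were listed with earlier results of these data known, so their shares beside those of all genes are descriptions alone. Of the 43, 25 were tested in hepatocyte-like cells. There 8 were higher and 8 lower, beside 23.3% and 24.6% of all genes tested. The leading ones were Aifm2, a vitamin K reductase, with 12.8, 15.7 and 17.2 CPM in control mice and 30.8, 33.7 and 38.9 CPM in anemic mice (log2 change 1.15, adjusted p = 8.98e-07), and Lrp1, a clearance receptor, with 91.3, 110.1 and 129 CPM in control mice and 56.7, 63.0 and 70.7 CPM in anemic mice (log2 change -0.77, adjusted p = 5.26e-06). S100a10 and Anxa2, which together bind plasminogen, had log2 changes of 1.31 and 0.58, and the protease inhibitor Pzp -0.84. Without the library factors 4 of the 25 related genes were higher and 11 lower, and with coarser clusters 11 and 7 of 29. In sinusoidal endothelial-like cells 13 of 38 were higher and 3 lower, beside 7.99% and 10.7% of all genes. The protease inhibitor A2m had 10.6, 12.9 and 21.8 CPM in control mice and 92.2, 144 and 216 CPM in anemic mice (log2 change 3.41, adjusted p = 1.84e-07). Selp (P-selectin, stored with VWF in endothelial cells) had 31.9, 49.9 and 66.0 CPM in control mice and 111, 222 and 292 CPM in anemic mice (log2 change 2.08, adjusted p = 6.62e-05). Itgb3, Anxa2 and Tgm2 had log2 changes of 2.52, 0.57 and 0.89. Among sinusoidal cells without platelet UMIs 9 of 32 related genes were higher and 3 lower. Their median log2 change was 0.008 there and 0.26 over all cells of the class. In large-vessel cells 3 of 31 were higher and 0 lower, beside 0.444% and 0.214% of all genes. They were A2m at 1.26, Pf4 at 1.52 and Gp9 at 2.51. Pf4 and Gp9 are platelet genes, and the platelet list in that class ran from 23.5 to 68.1 CPM in control and 56.1 to 111 CPM in anemic mice. With doublets left out none of these 3 was called: Pf4 was at 1.24 (adjusted p = 0.530), A2m at 0.93 (adjusted p = 0.148) and Gp9 was not tested. The count was 5 without control 2 and 1 without control 4. In stellate-like cells 6 of 34 were higher and 1 lower, beside 2.73% and 2.29% of all genes. Among them were Thbs1 at 0.60, Serping1 at 0.52 and Adamts13, the enzyme that cuts VWF, at -0.90. These 7 calls became 2 without control 1 or control 5, 3 without control 4, and 4 without control 2, anemia 4, anemia 5 or anemia 6. With coarser clusters 2 of 37 were higher and 1 lower, and with doublets left out 3 of 28 were higher and 2 lower. In macrophage-like cells 2 of 32 were higher and 0 lower (Anxa2 1.15), beside 1.33% and 1.24% of all genes. In monocyte-like cells 1 of 30 was higher (Gp9 2.18), beside 0.267%. Of 21 tested in neutrophil-like cells edgeR called 0, beside 0.372% of all genes, while 3 had an unadjusted p under 0.05 and DESeq2 called 1. The count in macrophage-like cells was 1 without anemia 2 or anemia 3, and the Gp9 call in monocyte-like cells was lost without control 1, 3, 4 or 6 or anemia 3.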

How the data were processed

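The authors deposited 1 filtered matrix of whole UMI counts per mouse, made with Cell Ranger 7.0.0 on mm10 per the file headers and labels. No value was normalized before deposit. Barcodes under 500 or over 50000 UMIs, or over 50% mitochondrial, were dropped and the rest clustered on 2000 variable genes and 20 principal components with the 35 members left out (Leiden resolution 2), and named from marker lists with at least 3 raised markers. The members, gene lists and naming conditions were chosen with earlier results of these data known. Doublets were called against simulated ones and left out only as an alternative (10.5% to 16.0% of cells per library).

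UMI counts were summed per mouse and class (at least 10 cells) and tested with edgeR 4.0.16 (R 4.3.3) quasi-likelihood, with TMM factors, over genes that averaged 5 UMIs or more a mouse and Benjamini-Hochberg adjustment over all genes tested in a class. Ribosomal protein and mitochondrial genes were left out. Mice are separate animals with 1 library each. Tests of source and of class differences were exact permutations over mice on log2(CPM + 1), unscaled, with scipy 1.17.1. Named genes were the members assigned to a class or called in it, fibrinogen and Serpinc1 in hepatocyte-like cells, and at most 5 called related genes per class with at least 10 CPM. A related gene that the rule would name is not reported here. Alternatives were DESeq2 1.42.0, limma 3.58.1 voom, other filters, scalings, clusterings and cell subsets, a replicate block, a Y-linked covariate and leaving out each mouse. The test was checked on simulated counts. Promoters came from RefSeq and gene positions from GENCODE M21. In the 7 classes compared between groups, totals ran from 588418 UMIs per mouse (large-vessel endothelial-like) upward, and cholangiocyte-like and megakaryocyte-like cells had as few as 208808 and 735, and counts limit the precision of low genes.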

Additional observations from a re-analysis of the deposited data

Results flagged for a closer look

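Changes in 2 genes and values in 2 mice stood out. The Vwf change differed between sinusoidal and large-vessel endothelial-like cells by 2.19 in log2(CPM + 1), by a permutation of the group labels (exact test, adjusted p = 0.0227). The Thbd change differed between macrophage-like and monocyte-like cells by 1.04 on the same scale (exact permutation test, adjusted p = 0.0227), although Thbd was called by edgeR in neither class.

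Within hepatocyte-like cells, Hrg was 662 CPM in anemia 5 and 442 to 516 CPM in the other anemic mice. Plg was 982 CPM in control 5 and 1097 to 1148 CPM in the other controls. Each was far from the rest of its group of 6, by the gap to the next mouse over the range. Of 82 groups checked, these 2 stood apart, and chance gives about 1 in 20. No cause was tested.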

How the results depend on the processing

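Counts of members called moved with the processing in every class tested, and the cause was not tested. Clusters were taken alone in hepatocyte-like and sinusoidal endothelial-like cells only. A number in brackets is the count of calls over all genes in the same fit. In hepatocyte-like cells the count of 17 (5421) was 21 (6720) with coarser clusters, 7 (409 of 5474 tested) in cluster 10, 3 (461 of 9523) in cluster 19 and 5 (210 of 3707) in cluster 20. In sinusoidal endothelial-like cells the count of 14 (3022) was 20 (2940) without doublets, 19 (3098) with coarser clusters, 9 (1794 of 12675) in cluster 7 and 3 (1095 of 5744) in cluster 27. In large-vessel endothelial-like cells the count of 2 (80) was 1 with a mean of at least 20 UMIs (68), with voom (246) or without platelet UMIs (63), and 0 with the Y-linked covariate (45), without doublets (104) or in cells with less hepatocyte RNA (54). In stellate-like cells the count of 8 (684) was 4 (414) with the Y-linked covariate and 2 (227) in cells with less hepatocyte RNA. In macrophage-like cells the count of 7 (366) was 14 (876) with DESeq2, 4 (236) with the Y-linked covariate, 3 (255) in cells with less hepatocyte RNA and 0 (77) without platelet UMIs. In monocyte-like cells the count of 1 (57) was 5 (148) with DESeq2, 4 without a filter (91) or with voom (162), 6 (99) without doublets, 2 with at most 10% mitochondrial UMIs (57) or with coarser clusters (60), and 0 with the Y-linked covariate (21) or at least 1500 UMIs (18). In neutrophil-like cells the count of 1 (33) was 4 (105) with DESeq2, 8 (306 of 19859) without a filter, 3 (85) without doublets, 2 with voom (46) or less hepatocyte RNA (25), and 0 with at least 20 UMIs (26), the Y-linked covariate (29), coarser clusters (39) or at least 1500 UMIs (30).

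Leaving out 1 mouse gave 14 to 19 calls in hepatocyte-like, 8 to 18 in sinusoidal endothelial-like, 0 to 2 in large-vessel endothelial-like, 3 to 13 in stellate-like, 0 to 13 in macrophage-like, 0 to 7 in monocyte-like and 0 to 5 in neutrophil-like cells. Over all genes it gave 32 to 111 calls in large-vessel endothelial-like (80 with every mouse in), 396 to 826 in stellate-like (684), 13 to 90 in monocyte-like (57) and 26 to 79 in neutrophil-like cells (33). Of the called values, 3 turned direction: F7 in cluster 19 (0.11), Pros1 in cluster 19 (0.14) and Cpb2 in cluster 20 (-0.050). Values that were not called changed sign too, such as Fga (-0.13) and Fgb (-0.03) without library factors and Fgg in cluster 20 (-0.20).

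Mice of the 2 groups share replicate numbers, but same-numbered mice did not deviate together in every pair of any class (correlations of -0.20 to 0.42, and not every mouse matched its own number best). In macrophage-like cells 4 of 6 pairs were over 0.1 and in sinusoidal endothelial-like and monocyte-like cells 3 of 6. The labels do not say that a number marks a shared litter or day, so the numbers were not taken as pairs. With the replicate block the counts were 17 (5168) in hepatocyte-like, 13 (2898) in sinusoidal endothelial-like, 1 (82) in large-vessel endothelial-like, 12 (671) in stellate-like, 12 (504) in macrophage-like, 10 (292) in monocyte-like and 2 (87) in neutrophil-like cells, and 0 class differences, where permuting within pairs cannot pass the threshold. Depth limits the low genes: a member under about 10 CPM rests on few UMIs per mouse.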

Other observations

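Clusters that met the conditions of no cell class also carried members. Cluster 9, led by Csta3, Asprv1 and Hcar2, had 1428 ± 201 CPM of Plaur, 403 ± 163 CPM of F5 and 168 ± 188 CPM of F10 (mean ± SD over 12 mice). In cluster 61, led by Prg4, Serpinb2 and Alox15, F5 was 311 ± 164 CPM, F10 196 ± 94.7 CPM and F3 129 ± 83.0 CPM. Cluster 42, led by Igfbp5, Msln and Upk3b, had 152 ± 26.7 CPM of F3, 149 ± 51.7 CPM of Thbd, 121 ± 25.6 CPM of Tfpi and 90.4 ± 23.2 CPM of Plat. These levels are unscaled CPM, and no comparison between groups was made in these clusters.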
